A study of Homo sapiens with 6 samples.

Results

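The metalloproteinases of the extracellular space and their inhibitors were followed in A549, an established human lung adenocarcinoma cell line, by RNA sequencing. Members were all gene symbols of the deposited count table that belong to the MMP, ADAM, ADAMTS or ADAMTSL families or to TIMP1 to TIMP4, together with RECK, and antisense genes were left out. The table held 55 such genes of 19876 gene symbols: 18 MMP, 15 ADAM, 16 ADAMTS and 2 ADAMTSL genes, 3 TIMP genes and RECK. TIMP3 was not analysed here. The cells, labelled wild type, were cultured with rhTR11B (3 libraries) or with phosphate-buffered saline (PBS) as negative control (3 libraries). The label rhTR11B is not spelled out; TR11B is used elsewhere for TNFRSF11B, which encodes osteoprotegerin, a decoy receptor that cells secrete. The labels give neither the dose of rhTR11B nor the time of treatment, and they call the libraries biological replicates without saying whether they came from separate cultures. The p-values therefore rest on library-to-library spread, part or all of which may be technical.

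All these enzymes except the catalytically dead relatives are zinc-dependent proteinases. MMPs are secreted or membrane-bound and cut matrix proteins such as collagens. They are made as inactive precursors, and the membrane-bound MMP14 activates the precursor of MMP2 with TIMP2 as adaptor. ADAMs sit in the membrane and release the outer parts of other membrane proteins, ADAM10 and ADAM17 being the best known of these sheddases. ADAMTS enzymes are secreted and cut proteoglycans, procollagens and other matrix proteins, and ADAMTSL proteins lack the catalytic domain. TIMPs block the active site, and RECK is a membrane-anchored inhibitor of MMPs.

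Libraries held 36315751 to 36992958 counts with rhTR11B and 37203313 to 38148838 counts with PBS. The 13 mitochondrially encoded genes took 7.88% to 10.4% of the counts with rhTR11B and 6.63% to 7.71% with PBS, and 78 genes of cytosolic ribosomal proteins took 3.58% to 4.23% with rhTR11B and 4.63% to 4.77% with PBS. The first principal component placed rhTR11B replicate 3 apart, at 25.7, with 2.66 and 8.63 for rhTR11B replicates 1 and 2 and -18.4 to -5.97 for the PBS libraries. The part of these shifts in the results was not tested. Of 6 epithelial markers, the keratins KRT8 and KRT18 had 23189 to 36616 counts in every library, whereas KRT19, EPCAM and CDH1 had at most 10 and CLDN4 at most 46. Summed FPKM of 5 fibroblast markers were 0.774 to 1.25 with rhTR11B and 0.481 to 0.668 with PBS, mostly COL1A1, and their part in the results was not tested. COL1A1 had 138 to 203 counts with rhTR11B and 99 to 126 with PBS, LUM had 6 to 27 with rhTR11B and 2 to 8 with PBS, and COL3A1 had 4 to 10 with rhTR11B and 4 to 6 with PBS. DCN had 0 counts in every rhTR11B library and at most 1 with PBS, and PDGFRB had at most 1 in any library. The 3 leukocyte and 3 endothelial markers found summed to at most 0.489 and 0.0931 FPKM in any library.

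Start regions are printed for some members that rose and for some with hardly any counts, so that their letters can be read beside the values. The RefSeq promoter table of GRCh38.p14 matched 34 of the 55 genes. It was searched on both strands for the AP-1 motif TGANTCA, the GC box GGGCGG and the TATA box TATAAA from 250 bases before to 50 bases after the annotated start. Below are the 100 bases before the start of 4 genes that rose with rhTR11B and of 2 genes with few or no counts, chosen because they hold both the AP-1 and the TATA letters, 5′ to 3′ on the gene's strand, with the motifs in capitals.
MMP14, chr14:22836485-22836584, plus strand: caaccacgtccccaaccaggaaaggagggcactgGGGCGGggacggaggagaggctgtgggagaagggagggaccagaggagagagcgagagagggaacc
ADAM10, chr15:58749708-58749807, minus strand: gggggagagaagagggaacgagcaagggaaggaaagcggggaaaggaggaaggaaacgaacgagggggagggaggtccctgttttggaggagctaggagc
ADAMTS7, chr15:78811465-78811564, minus strand: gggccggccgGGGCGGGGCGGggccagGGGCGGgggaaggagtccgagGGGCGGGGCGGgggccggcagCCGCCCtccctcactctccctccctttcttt
TIMP1, chrX:47582336-47582435, plus strand: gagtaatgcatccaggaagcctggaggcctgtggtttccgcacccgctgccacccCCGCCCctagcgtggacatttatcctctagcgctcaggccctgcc
MMP10, chr11:102780629-102780728, minus strand: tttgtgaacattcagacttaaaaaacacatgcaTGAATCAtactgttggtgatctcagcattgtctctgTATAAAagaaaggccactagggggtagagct
MMP7, chr11:102530748-102530847, minus strand: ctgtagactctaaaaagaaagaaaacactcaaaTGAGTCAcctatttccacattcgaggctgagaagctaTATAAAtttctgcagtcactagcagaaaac

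MMP10 and MMP7 both carried the AP-1 letters at position -67 and the TATA letters about 30 bases before the start (at -31 and -30). Both motifs together occurred in 1.31% of all 35116 promoters of the table and in no other matched member. ADAMTS7 held 6 GC boxes in the printed stretch, and MMP14 and TIMP1 held 1 each. Of the 19 matched members with enough counts to be tested, 17 had a GC box and 0 the AP-1 motif. Of the 15 matched members with too few counts, 9 had a GC box and 3 (ADAMTS12, MMP10 and MMP7) the AP-1 motif. The TATA box was in 1 tested member, ADAMTS10, which rose, and in 4 of the 15 with too few counts. ADAM19, which also rose, had none of the 3 motifs, and the GC box of ADAM10 lay at -193, outside the printed stretch. Over all promoters the shares were 45.0% for the GC box, 7.71% for AP-1 and 11.5% for the TATA box. These are matches of letters within fixed windows, not measured binding sites.

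Levels between genes were compared as FPKM, counts scaled by gene length and by library total. The family ranged from TIMP1, above 98.2% of all detected genes on average, to genes with a single count in all 6 libraries together. TIMP1, a secreted inhibitor and growth factor, had 128, 131 and 159 FPKM in rhTR11B replicates 1, 2 and 3, against 122, 108 and 117 FPKM in PBS replicates 1, 2 and 3. ADAM9, a membrane sheddase, came next with 62.6, 65.2 and 67.2 FPKM with rhTR11B, against 63.9, 65.1 and 59.4 FPKM with PBS. ADAM15, a membrane ADAM with an integrin-binding disintegrin domain, MMP14 and ADAMTS1, a secreted proteoglycan-cutting enzyme, followed, and ADAM10 closed the leading group with 20.1 to 22.6 FPKM with rhTR11B and 17.5 to 19.1 FPKM with PBS. Of the 31 genes tested, 19 had a mean of at least 1 FPKM and 8 of at least 10 FPKM.

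The order of MMP14 and ADAMTS1 differed between the groups. MMP14 stood at 38.6 to 42.8 FPKM with rhTR11B, above ADAMTS1 at 33.1 to 36.3 FPKM in the same libraries. With PBS, MMP14 stood at 30.4 to 32.4 FPKM, below ADAMTS1 at 36.01 to 37.95 FPKM. ADAM15 overlapped MMP14 with rhTR11B (40.1 to 47.5 FPKM) and overlapped ADAMTS1 with PBS (35.9985 to 41.4 FPKM). MMP14 alone made up 78.8% to 81.0% of the summed FPKM of the 18 MMP genes with rhTR11B and 77.4% to 78.9% with PBS. TIMP1 made up 97.7% of the summed FPKM of TIMP1, TIMP2 and TIMP4 in every rhTR11B library and 97.6% to 97.8% with PBS. TIMP3 was not part of this sum. MMP14 exceeded TIMP2 11.5- to 13.3-fold in FPKM with rhTR11B and 10.9- to 12.6-fold with PBS, and TIMP1 exceeded MMP14 3.19- to 3.72-fold with rhTR11B and 3.55- to 3.83-fold with PBS, so these ratios overlapped between the groups.

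**Figure D1:**
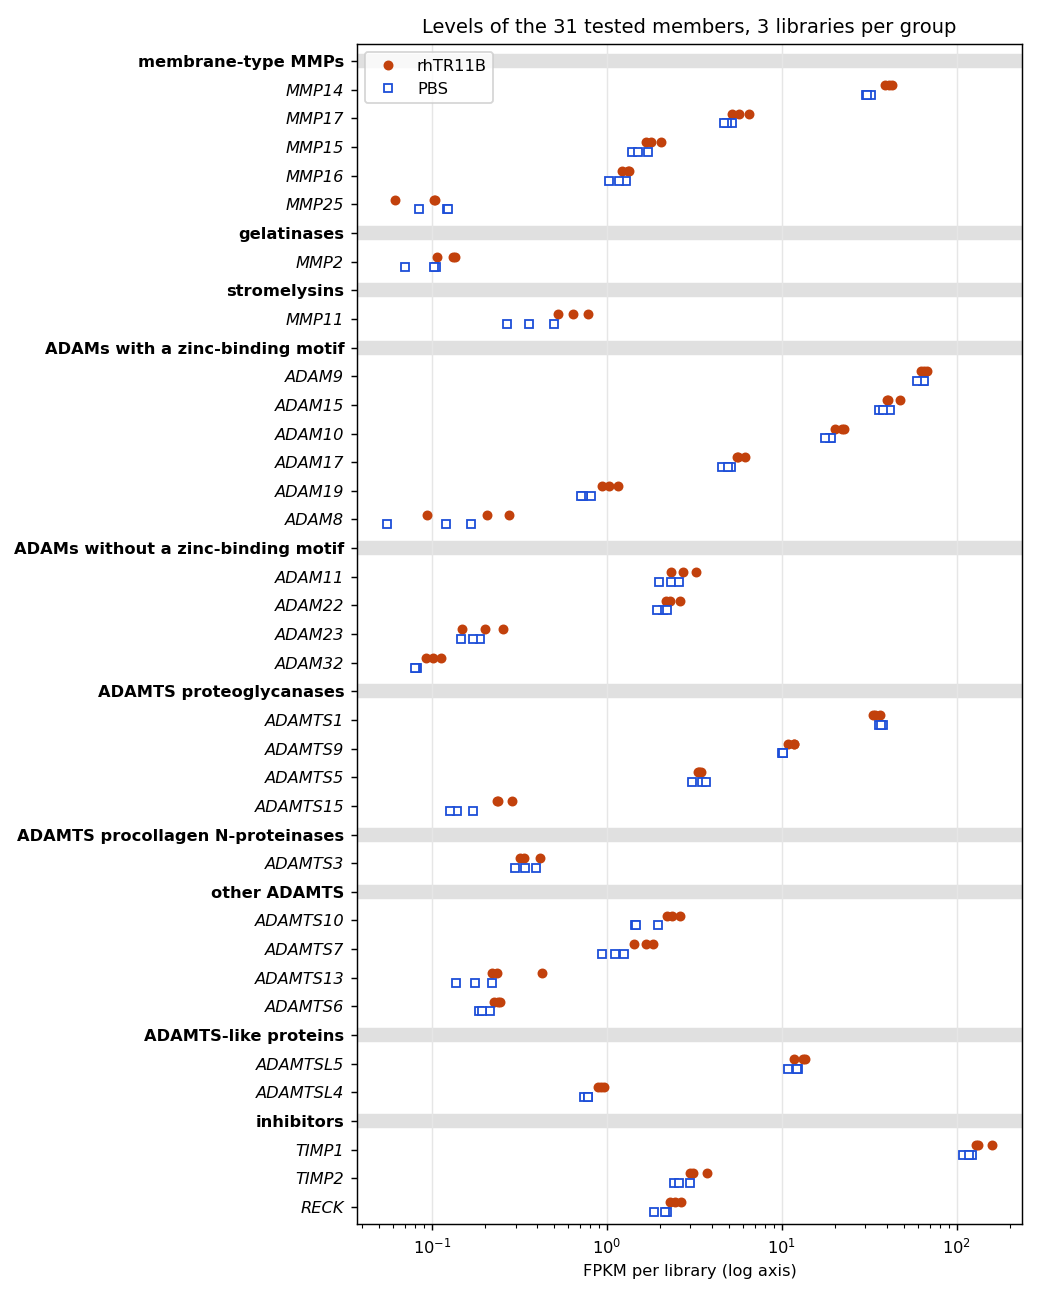
FPKM of the 31 tested members in each of 3 rhTR11B libraries (filled circles, upper of each pair of rows) and 3 PBS libraries (open squares) on a log axis, grouped by role. TIMP1 stands highest at 108 to 159 FPKM, and MMP14 is the only MMP above 10 FPKM.

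Many members were barely transcribed. In 13 of the 55 genes no library had more than 1 count: MMP7, MMP21, MMP28, ADAM12, ADAM28, ADAM29, ADAMTS2, ADAMTS4, ADAMTS12, ADAMTS17, ADAMTS18, ADAMTS19 and TIMP4. Another 11 genes had at most 26 counts in any library and fell below the filter on low counts: MMP1, MMP3, MMP9, MMP10, MMP13, MMP19, MMP23B, MMP24, ADAM20, ADAM21 and ADAMTS16. Both collagenases found, MMP1 and MMP13, which cut fibrillar collagen, were among these. The members included 5 MMP genes in a stretch of chromosome 11: MMP7, MMP10, MMP1, MMP3 and MMP13 (102520508 to 102955732 on GRCh38.p14). Together they gave 25, 23 and 33 counts in rhTR11B replicates 1, 2 and 3, against 33, 16 and 18 counts in PBS replicates 1, 2 and 3. MMP genes absent from the deposited counts are not in these sums. The secreted gelatinase MMP9 had 7, 26 and 9 counts with rhTR11B, against 17, 2 and 8 counts with PBS, and the groups overlapped. MMP24, a membrane-type MMP known from neurons, had 5, 4 and 7 counts with rhTR11B, against 8, 20 and 15 counts with PBS, and here every rhTR11B library was below every PBS library. Without a filter on low counts its adjusted p was 0.168 (edgeR), and 18.1% of its annotated exon bases lie opposite exons of MMP24OS. MMP23B had 6 counts in PBS replicate 3 and 0 in the other libraries. MMP23B, ADAM20 and ADAM21 have close pseudogene copies, so their few reads are uncertain.

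With rhTR11B, 6 of the 31 tested members rose and 0 fell at a Benjamini-Hochberg adjusted p under 0.05 in edgeR's quasi-likelihood test over 13567 genes. The 6 were the membrane proteinase MMP14, the sheddases ADAM10 and ADAM19, the secreted ADAMTS7 and ADAMTS10 and the inhibitor TIMP1. Their levels stood 1.18- to 1.52-fold above those with PBS. Of all tested genes 3.6% were called, 2.92% higher and 0.678% lower with rhTR11B. The members were chosen with earlier results of these data known, in which MMP14 had been described. The shares given here are therefore not independent evidence. Among the members 28 log2 fold changes were above 0 and 3 below, where 50% of all tested genes were above 0, and the members' median was 0.27 against 0.00 for all tested genes. In 17 members the 3 rhTR11B libraries lay wholly above the 3 PBS libraries and in 0 wholly below, against 15.1% and 14% of all tested genes. At an unadjusted p under 0.05 there were 18 members, all higher, against 24.2% of all tested genes in either direction. The count of calls moved with the libraries used: 3 members were called without PBS replicate 1, 1 without PBS replicate 2 and 0 without PBS replicate 3, with 18, 13 and 13 at an unadjusted p under 0.05. Leaving out rhTR11B replicates 1, 2 and 3 gave 9, 4 and 4. Over all genes, 282, 23 and 12 were called without PBS replicates 1, 2 and 3. Without rhTR11B replicates 1, 2 and 3 there were 1330, 432 and 381. At an unadjusted p under 0.05 (edgeR), 2990, 2258 and 2424 genes stood without PBS replicates 1, 2 and 3. Each of these fits tested 13730 to 13765 genes. The members' median log2 fold change was 0.19 without rhTR11B replicate 3 and 0.24 to 0.32 without any other library.

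**Figure D2:**
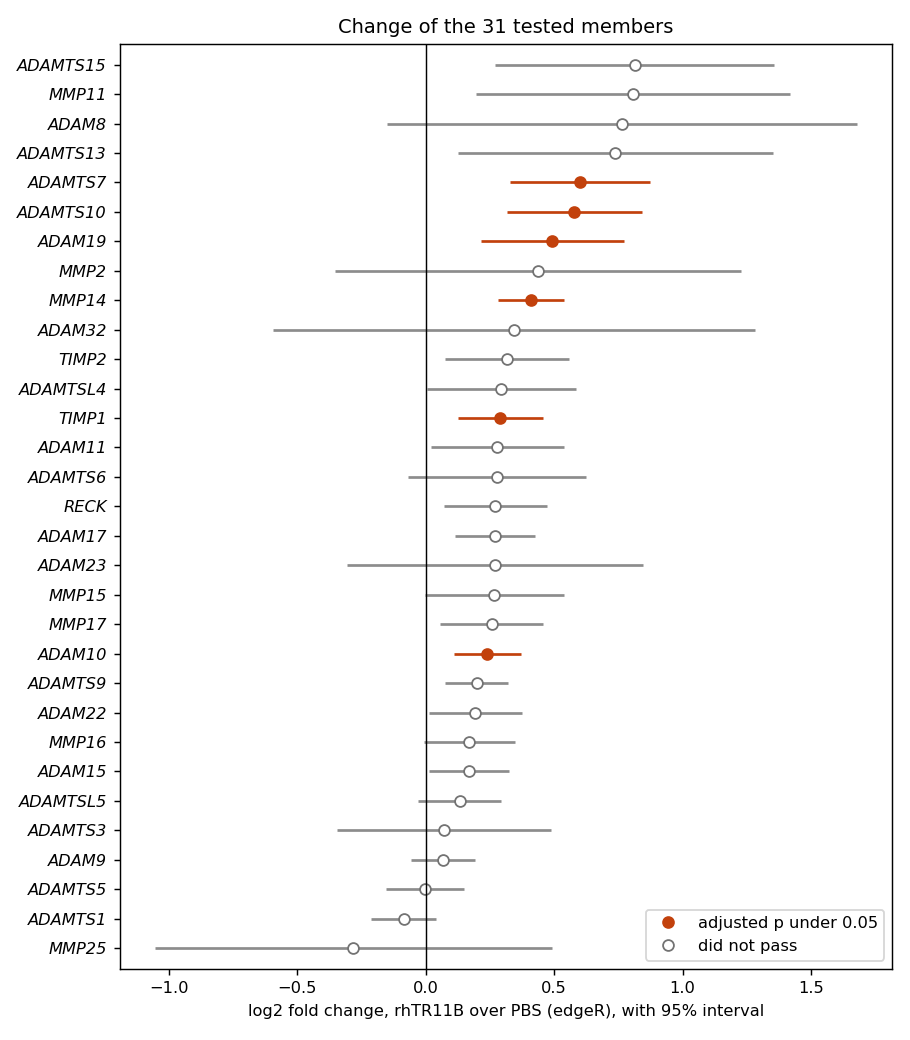
Log2 fold change of rhTR11B over PBS (horizontal axis) with its 95% interval for each of the 31 tested members, ordered by size; filled points passed an adjusted p of 0.05. The 6 filled points run from 0.24 for ADAM10 to 0.60 for ADAMTS7, and the largest estimates (ADAMTS15, MMP11, ADAM8 and ADAMTS13) have the wide intervals of genes with few counts.

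Among the membrane-type MMPs, which act at the cell surface, MMP14 rose and the other 4 tested genes did not pass. MMP14 (chromosome 14, 22836585 to 22847758) had 5253, 5632 and 5755 counts in rhTR11B replicates 1, 2 and 3, against 4467, 4279 and 4305 counts in PBS replicates 1, 2 and 3. Scaled by library size with TMM (CPM), this was 144, 151 and 161 with rhTR11B and 119, 111 and 113 with PBS. Every rhTR11B library stood above every PBS library, and the means were 152 ± 8.74 CPM with rhTR11B and 115 ± 4.34 CPM with PBS (SD, n = 3 each). The log2 fold change was 0.41 (SE 0.06, edgeR adjusted p = 0.00264). It stayed between 0.37 and 0.45 with any library left out, and the adjusted p was 0.0641 without PBS replicate 3 and at most 0.0342 without any other.

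The lipid-anchored MMP17 had 17.8, 16.0 and 20.6 CPM with rhTR11B, against 16.1, 14.9 and 14.6 CPM with PBS, and the groups overlapped slightly (log2 fold change 0.26, edgeR adjusted p = 0.110). The transmembrane MMP15 and MMP16 had log2 fold changes of 0.27 (95% interval -0.00 to 0.54) and 0.17 (-0.01 to 0.35). MMP25, a lipid-anchored enzyme of leukocytes, had -0.28 (-1.05 to 0.49) from 12 to 25 counts a library, and 35.2% of its exon bases lie opposite those of MMP25-AS1.

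The gelatinase MMP2, whose precursor MMP14 activates, was close to the lower limit of detection. It had 16, 20 and 20 counts with rhTR11B, against 16, 16 and 11 counts with PBS. Its log2 fold change of 0.44 had a 95% interval of -0.35 to 1.23 (edgeR adjusted p = 0.503), so a difference was not detectable at this depth. MMP11, a stromelysin that furin activates inside the cell, had 53, 44 and 64 counts with rhTR11B, against 30, 43 and 23 counts with PBS. All 3 rhTR11B libraries were higher in CPM, by a small margin between rhTR11B replicate 2 at 1.18 CPM and PBS replicate 2 at 1.12 CPM (log2 fold change 0.81, SE 0.29, edgeR adjusted p = 0.103). Of its exon bases 4.21% lie opposite CHCHD10, a gene with 1209 counts a library on average, and the strand setting of the counting is not given in the sources used here.

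Of 6 tested ADAMs with the zinc-binding motif of an active proteinase, ADAM10 and ADAM19 rose and ADAM17 stood at the threshold. ADAM10 (chromosome 15, 58588809 to 58749707), the sheddase of Notch receptors and cadherins, had 229, 246 and 261 CPM in rhTR11B replicates 1, 2 and 3, against 211, 214 and 199 CPM in PBS replicates 1, 2 and 3. The groups did not overlap, and the means were 246 ± 16.0 CPM with rhTR11B and 208 ± 7.97 CPM with PBS (SD, n = 3 each; log2 fold change 0.24, SE 0.06, edgeR adjusted p = 0.0423). ADAM19 (chromosome 5, 157477304 to 157575775), a sheddase of neuregulin, had 223, 247 and 274 counts with rhTR11B, against 195, 181 and 175 counts with PBS. Every rhTR11B library lay above every PBS library, and ADAM19 rose by 0.49 on the log2 scale (SE 0.13, edgeR adjusted p = 0.0475).

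ADAM17 (chromosome 2, 9488486 to 9555830), the enzyme that releases TNF and several EGF receptor ligands, had 37.5, 36.6 and 42.0 CPM with rhTR11B, against 30.0, 33.5 and 32.7 CPM with PBS. The groups did not overlap, and the log2 fold change of 0.27 (SE 0.07) had an edgeR adjusted p of 0.05003, just over the threshold. Of its exon bases 12.3% lie opposite IAH1, which had 612 counts a library on average. ADAM10 exceeded ADAM17 in FPKM 3.60- to 3.96-fold with rhTR11B and 3.59- to 4.14-fold with PBS. ADAM9, the ADAM with the highest level, had 305 ± 12.7 CPM with rhTR11B and 291 ± 11.999 CPM with PBS (SD, n = 3 each), with a log2 fold change of 0.07 (95% interval -0.06 to 0.19, edgeR adjusted p = 0.516). ADAM15 had 131, 129 and 157 CPM with rhTR11B, against 133, 115 and 122 CPM with PBS, and only rhTR11B replicate 3 stood clear of the PBS libraries (edgeR adjusted p = 0.176). ADAM8, best known from leukocytes, had 8 to 38 counts a library and a log2 fold change of 0.76 (95% interval -0.15 to 1.68). Whether the changes of single ADAMs differed from each other was not tested.

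The 4 tested ADAMs that lack the zinc-binding motif had log2 fold changes of 0.19 to 0.35. None passed (0 of 4 in edgeR), and 2 had an unadjusted p under 0.05, as had 24.2% of all tested genes. ADAM11 and ADAM22, both known from the nervous system, had 2.75 ± 0.457 and 2.35 ± 0.231 FPKM with rhTR11B and 2.29 ± 0.313 and 2.08 ± 0.137 FPKM with PBS (SD, n = 3 each). ADAM22 is a receptor of the secreted protein LGI1. Their edgeR adjusted p values were 0.174 and 0.179.

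**Figure D3:**
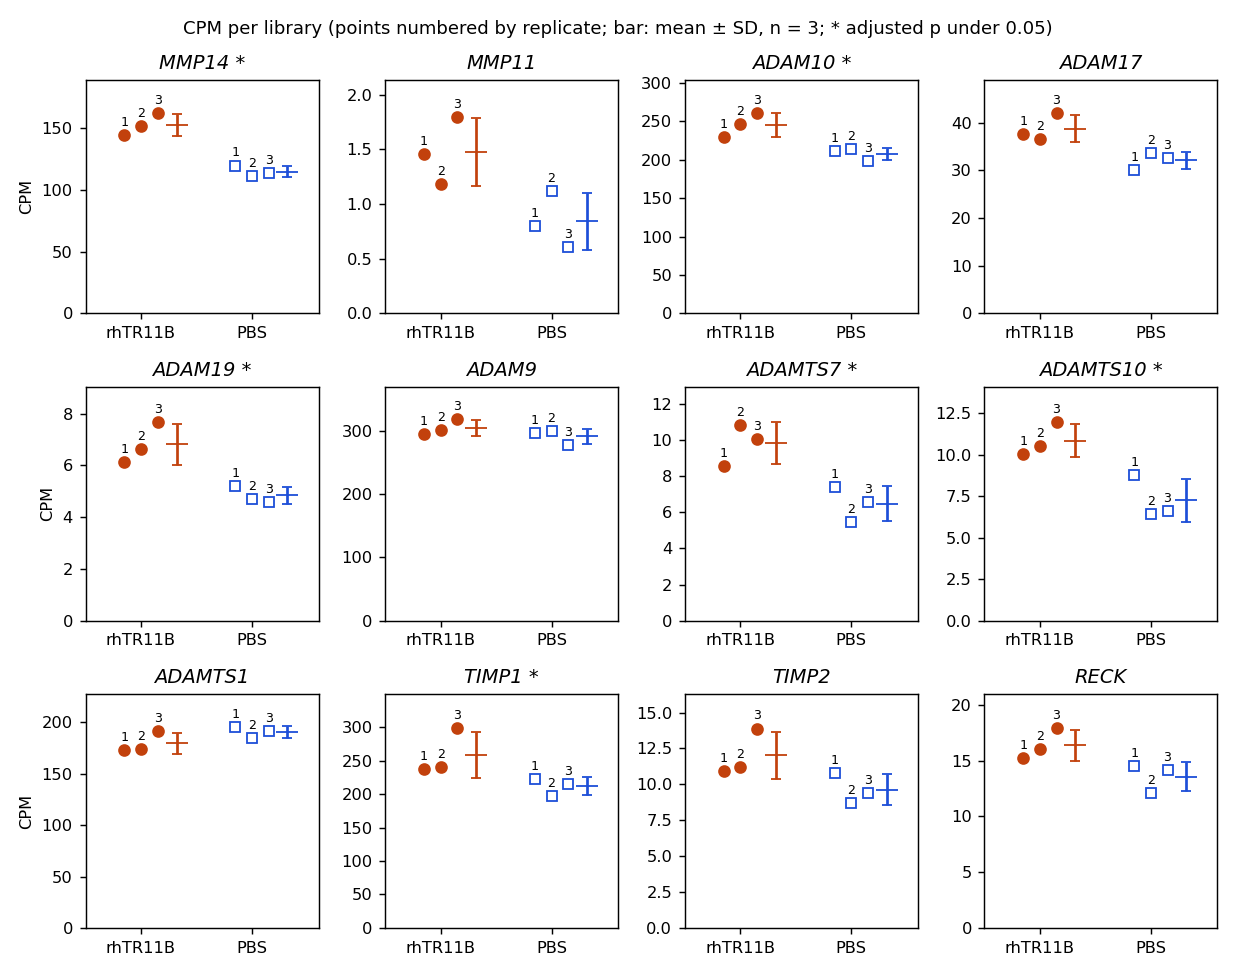
TMM-scaled CPM of 12 members in each library, rhTR11B left and PBS right, with points numbered by replicate and bars for the mean ± SD (n = 3); an asterisk marks an adjusted p under 0.05. rhTR11B replicate 3 is the highest library for each gene shown except ADAMTS7 and ADAMTS1.

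Of 9 tested ADAMTS genes, ADAMTS7 and ADAMTS10 rose and the other 7 did not pass. ADAMTS7 (chromosome 15, 78759206 to 78811464), which cuts the cartilage protein COMP, had 312, 404 and 358 counts in rhTR11B replicates 1, 2 and 3, against 277, 210 and 250 counts in PBS replicates 1, 2 and 3. The groups did not overlap, and ADAMTS7 rose by 0.60 on the log2 scale (SE 0.13, edgeR adjusted p = 0.0218), the largest change among the called members. ADAMTS7 has pseudogene copies in the annotation (ADAMTS7P1, ADAMTS7P3 and ADAMTS7P4), and how reads were shared among them is not given in the sources used here, so its value is uncertain. ADAMTS10 (chromosome 19, 8580240 to 8610715), which binds fibrillin microfibrils, had 367, 393 and 426 counts with rhTR11B, against 328, 248 and 251 counts with PBS. It rose by 0.58 (SE 0.13, edgeR adjusted p = 0.0227), and PBS replicate 1 lay nearest to the rhTR11B libraries.

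ADAMTS1 made up 62.2% to 63.9% of the summed FPKM of the 16 ADAMTS genes with rhTR11B and 67.9% to 69.0% with PBS, and these shares did not overlap. It had 173, 174 and 192 CPM with rhTR11B, against 196, 184 and 192 CPM with PBS (log2 fold change -0.09, 95% interval -0.21 to 0.04, edgeR adjusted p = 0.398). Its neighbour on chromosome 21, the aggrecan-cutting ADAMTS5, 72.5 kb away, had 33.8 ± 0.234 CPM with rhTR11B and 33.8 ± 2.77 CPM with PBS (SD, n = 3 each), a log2 fold change of -0.00 (95% interval -0.16 to 0.15). In FPKM, ADAMTS1 exceeded ADAMTS5 9.87- to 10.99-fold with rhTR11B and 9.85- to 12.04-fold with PBS. ADAMTS9, another proteoglycan-cutting enzyme, had 83.2, 88.7 and 91.0 CPM with rhTR11B, against 75.5, 76.6 and 77.1 CPM with PBS. Its groups did not overlap, at a log2 fold change of 0.20 (SE 0.06, edgeR adjusted p = 0.0619). ADAMTS15, likewise a proteoglycan-cutting enzyme, had 66, 54 and 54 counts with rhTR11B, against 40, 33 and 30 counts with PBS (log2 fold change 0.81, SE 0.26, edgeR adjusted p = 0.0733). The procollagen N-proteinase ADAMTS3 had 82 to 106 counts with rhTR11B and 80 to 102 with PBS (log2 fold change 0.07, 95% interval -0.35 to 0.49). ADAMTS13, which cuts von Willebrand factor, and ADAMTS6 had log2 fold changes of 0.74 and 0.28 (edgeR adjusted p = 0.132 and 0.314). ADAMTS13 had 94 counts in rhTR11B replicate 2, against 48 and 51 counts in the other rhTR11B libraries and 31 to 50 counts with PBS. Without rhTR11B replicate 2 its log2 fold change was 0.38 (edgeR adjusted p = 0.509). The ADAMTS-like genes ADAMTSL5 and ADAMTSL4 had 0.13 and 0.30 (edgeR adjusted p = 0.300 and 0.199).

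Of the inhibitors, TIMP1 rose, and TIMP2 and RECK had values of the same sign that did not pass. TIMP1 (chromosome X, 47582436 to 47586789) had 238, 240 and 298 CPM in rhTR11B replicates 1, 2 and 3, against 223, 196 and 215 CPM in PBS replicates 1, 2 and 3. The groups did not overlap, though rhTR11B replicates 1 and 2 lay nearer to PBS replicate 1 than to rhTR11B replicate 3. The means were 259 ± 34.6 CPM with rhTR11B and 211 ± 13.5 CPM with PBS (SD, n = 3 each; log2 fold change 0.29, SE 0.08, edgeR adjusted p = 0.0484). Without rhTR11B replicate 3 the log2 fold change was 0.18 (edgeR adjusted p = 0.0658). TIMP2 (chromosome 17, 78852977 to 78925387) had 399, 418 and 495 counts with rhTR11B, against 404, 334 and 359 counts with PBS. In CPM rhTR11B replicate 1 at 10.9 barely exceeded PBS replicate 1 at 10.8, and the log2 fold change of 0.32 had an SE of 0.12 (edgeR adjusted p = 0.102). Without rhTR11B replicate 3 it was 0.20. RECK (chromosome 9, 36036913 to 36124455) had 554, 598 and 639 counts with rhTR11B, against 543, 465 and 538 counts with PBS (log2 fold change 0.27, SE 0.10, edgeR adjusted p = 0.0973).

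**Figure D4:**
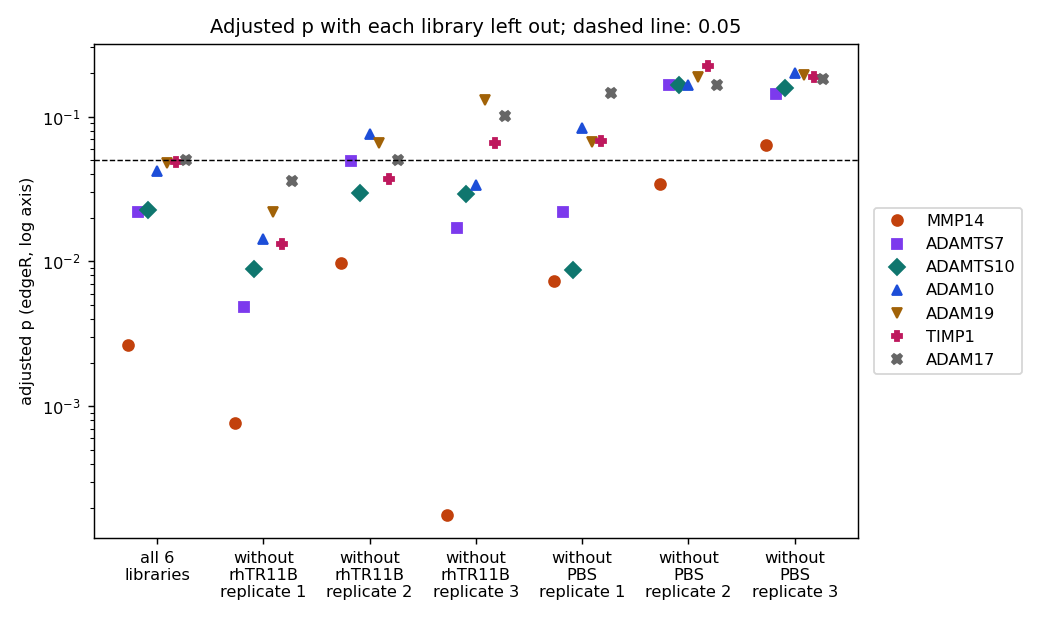
Adjusted p (log axis) of the 6 called members and ADAM17 with all 6 libraries and with each library left out; the dashed line marks 0.05. MMP14 lies below the line in all settings but the fit without PBS replicate 3 (0.0641), whereas the other 6 genes lie above it without PBS replicate 2 and without PBS replicate 3.

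The called members other than MMP14 had an edgeR adjusted p of 0.165 to 0.222 without PBS replicate 2 and of 0.144 to 0.198 without PBS replicate 3. ADAMTS7 and ADAMTS10 passed in the other 4 fits. ADAM10 did not pass without PBS replicate 1 (0.0833) or without rhTR11B replicate 2 (0.0761). TIMP1 did not pass without PBS replicate 1 (0.0682), and ADAM19 passed only without rhTR11B replicate 1 (0.0221). ADAM17 passed without rhTR11B replicate 1 (0.0362).

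Genes that act on these enzymes, or that they cut, were read from 8 lists. The lists were chosen with earlier results of these data known, in which several of their genes had been described. Among regulators of ADAM10 and ADAM17, the tetraspanin TSPAN14, which guides ADAM10 to the cell surface, rose to 102 ± 6.30 CPM with rhTR11B, against 80.1 ± 1.81 CPM with PBS (SD, n = 3 each; log2 fold change 0.35, edgeR adjusted p = 0.00674). RHBDF2 (iRhom2), a carrier that ADAM17 needs to mature, rose to 108 ± 10.8 CPM with rhTR11B, against 89.1 ± 5.38 CPM with PBS (log2 fold change 0.27, edgeR adjusted p = 0.0451). The other 4 tested tetraspanins of that group and the other 2 genes of the iRhom list did not pass. Without PBS replicate 2 or 3 neither gene passed, and without PBS replicate 1 or rhTR11B replicate 3 RHBDF2 did not. None of the 3 tested convertases, which cut off the inhibitory propeptides, passed (0 in edgeR). An unadjusted p under 0.05 was reached by 2 of them and by 24.2% of all tested genes. FURIN had a log2 fold change of 0.19 (edgeR adjusted p = 0.0886). Of 5 tested genes of plasminogen activation 3 rose: the urokinase gene PLAU (0.38), its receptor PLAUR (0.41) and the protease inhibitor SERPINE2, from the list's inhibitors, at 85.0 ± 7.45 CPM with rhTR11B and 64.2 ± 3.65 CPM with PBS (edgeR adjusted p = 0.00561). Among these 5 genes 2 were called without PBS replicate 1 and 0 without PBS replicate 2 or 3. Of 4 tested genes among further inhibitors and MMP inducers 0 passed in edgeR, with 1 at an unadjusted p under 0.05, the MMP inducer BSG (0.26, edgeR adjusted p = 0.0635).

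Of 22 tested substrates of ADAM10 or ADAM17, 11 rose and 0 fell, against 2.92% of all tested genes called higher. The list's median log2 fold change was 0.25 against 0.00. The substrate lists were chosen with earlier results of these data known, in which ICAM1, CDH2, TNF and FN1 had been described. These shares are therefore not independent evidence. The adhesion molecule L1CAM rose to 51.7 ± 7.15 CPM with rhTR11B, against 33.6 ± 3.35 CPM with PBS (SD, n = 3 each; log2 fold change 0.62, edgeR adjusted p = 0.00264). The hyaluronan receptor CD44 rose to 846 ± 74.0 CPM with rhTR11B, against 667 ± 18.8 CPM with PBS (0.34, edgeR adjusted p = 0.0145). N-cadherin (CDH2) and ICAM1 rose too. Of the EGF receptor ligands, a subset picked after the values were seen, EREG, AREG, TGFA, HBEGF and BTC had log2 fold changes of -0.15 to 0.25, and none passed. Of 8 tested matrix substrates 5 rose, among them the proteoglycan VCAN, a substrate of ADAMTS1, at 480 ± 46.8 CPM with rhTR11B and 382 ± 3.79 CPM with PBS (0.33, edgeR adjusted p = 0.0177), FN1 (0.78) and COL4A1 (0.27). The counts of the 11 shed and 5 matrix substrates were 1 and 1 without PBS replicate 2 and 0 and 1 without PBS replicate 3. Without PBS replicate 1 there were 9 and 3. The 12 tested AP-1 and ETS factors, which drive several MMP genes, had a median of 0.01, and 0 passed in edgeR. Of these factors 1 had an unadjusted p under 0.05, against 24.2% of all tested genes. The smallest p values were those of ETV5 (0.18, edgeR adjusted p = 0.130), ETV1 (0.16, 0.214) and JUN (-0.11, 0.339).

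**Figure D5:**
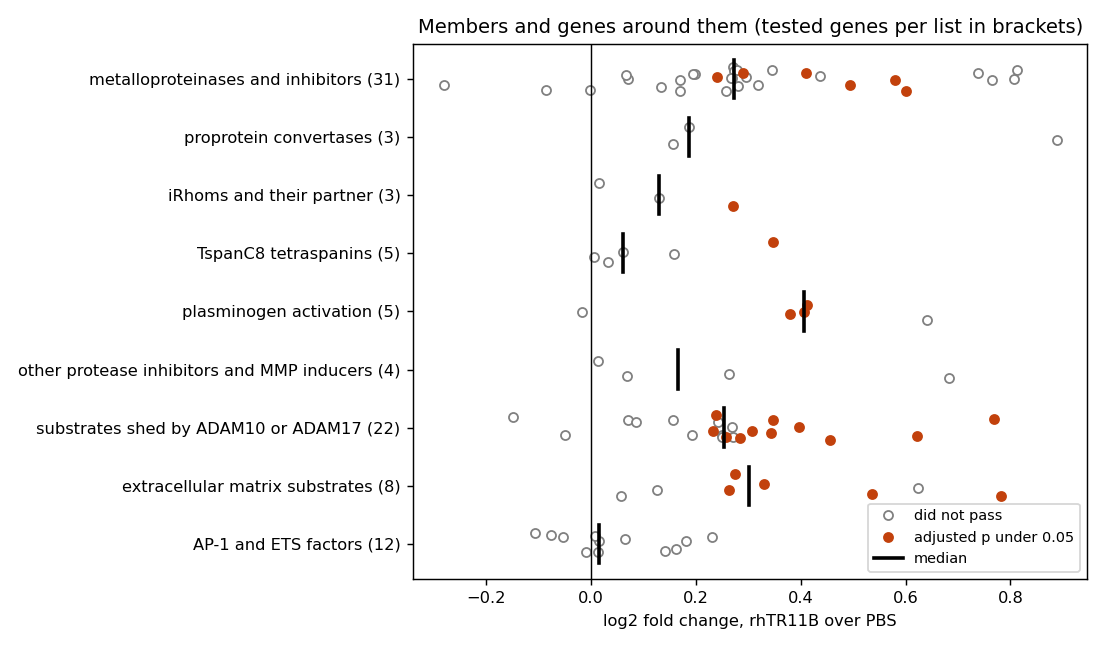
Log2 fold change of rhTR11B over PBS for each tested gene of the metalloproteinases and inhibitors (top) and of 8 lists around them; filled points passed an adjusted p of 0.05 and black bars mark medians. The medians run from 0.01 for AP-1 and ETS factors to 0.41 for plasminogen activation, with 0.27 for the metalloproteinases and inhibitors.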

How the data were processed

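The authors deposited read counts per gene and FPKM values for 6 A549 libraries. Per the submitters' processing notes, fastp, HISAT, HTSeq, R 3.2.0 and DESeq2 were used with GRCh38; the sources used here give neither annotation nor strand setting. FPKM recomputed from the deposited counts and a length for each gene matched the authors' values. Some of these lengths are not whole numbers, such as 6425.01 for ADAM23. The match is therefore no independent check of the lengths or of the FPKM. Here, counts were filtered (filterByExpr, minimum count 10), scaled by TMM and tested in edgeR 4.0.16 (R 4.3.3) with the quasi-likelihood test, Benjamini-Hochberg adjusted over all 13567 genes passing the filter. CPM are TMM-scaled. The fit was also run on simulated counts, drawn independently for each library with means and spread taken from these data. Such counts hold no outlying library, so that run cannot show how calls behave with rhTR11B replicate 3. DESeq2 1.42.0, limma 3.58.1, other scalings and filters, a replicate block and each library left out were tried as alternatives. Members and lists were chosen with earlier results of these data known, in which MMP14 and several listed genes, such as ICAM1, CDH2, PLAU, PLAUR, FN1 and TNF, had already been described, so those are not independent evidence. Members named in full are the called genes, MMP14, MMP2, TIMP1, TIMP2, RECK, ADAM10 and ADAM17, the highest gene by FPKM of each role group and the 10 smallest p values; of each pathway list up to 4 genes with the smallest p are named, except that some results are not reported here, and any other gene is given as values. Exon overlaps come from GENCODE 29 and promoters and gene positions from RefSeq GRCh38.p14. Library totals of 36315751 to 38148838 counts limit precision for genes with few counts. Labels gave the groups.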

Additional observations from a re-analysis of the deposited data

How the results depend on the processing

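With all 6 libraries, edgeR called 6 members and 488 genes. DESeq2's Wald test called 8 members and 1099 genes, and edgeR without a filter on low counts called 8 and 1423. With a mean of at least 5 CPM there were 3 members and 231 genes, and with library size alone 3 members. Limma-trend on log2(FPKM + 1) called 1 member and 83 genes at a mean of at least 1 FPKM, 1 and 86 with a pseudocount of 0.1, and 0 and 0 with no filter, where 14 members and 3073 genes had an unadjusted p under 0.05. MMP14 was the member that the filtered FPKM fits called. DESeq2's size factors and limma-voom left both counts within 1.5 times. Leaving out each library in turn gave 0 to 9 members and 12 to 1330 genes; without PBS replicates 2 and 3 there were 23 and 12 genes, with 2258 and 2424 at an unadjusted p under 0.05. Under none of these alternatives was a member called lower, and the cause of the shifts in the counts was not tested.

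Deviations of same-numbered libraries from their group means correlated at -0.10, 0.05 and -0.01. Differently numbered libraries were not set beside them, so these values cannot settle whether equal replicate numbers mark paired libraries. A fit with the replicate number as a block called 7 members and 1026 genes. Over the named members tested, 221 values kept their direction and side of the threshold, 40 lost the call, 8 gained it and 2 reversed. Both reversals were of ADAMTS3, whose log2 fold change ran from -0.064 without rhTR11B replicate 3 to 0.17 without PBS replicate 1, with -0.023 without PBS replicate 2. MMP2, MMP11 and ADAMTS15 had no adjusted p in DESeq2, and they, ADAMTS3 and ADAM19 fell below some filters. The 24 members with too few counts were not tested in the main fit. In edgeR without a filter on low counts none of their adjusted p values was under 0.168. With a library left out, the filter kept more genes (13730 to 13765, against 13567 with all libraries). Any values of these members in those fits are not given here.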
